A study of Mus musculus with 10 samples.

Results

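Pou5f1, Sox2 and Nanog, the 3 core pluripotency transcription factor genes, were followed through all 5 groups of an embryoid body series, as 3 of the 23337 genes in the deposited count table once its spike-in entries were set aside. They were selected on their counts over the 5 groups, because Pou5f1 kept its level in the Flk1-positive libraries while Sox2 and Nanog did not. Their levels there are therefore given as a description without a test. The other 8 libraries were the levels compared with in that choice, so the tests among them are not fully independent of it. Embryoid bodies are aggregates of differentiating embryonic stem cells, and the mouse line, iHA-Etv2, carries, as its name is generally read, an HA-tagged Etv2 gene under the control of doxycycline; Etv2 is the transcription factor that starts the blood and endothelial program. RNA was sequenced from embryoid bodies of this line without doxycycline at day 2, with doxycycline at day 2, without doxycycline at day 2.5, with doxycycline at day 2.5, and from Flk1-positive cells of doxycycline-treated bodies at day 2.5. Each group had 2 libraries. Flk1 is the VEGF receptor encoded by Kdr and marks the mesoderm from which blood and endothelium arise. The labels mark the other 8 libraries as not Flk1-positive without saying whether those cells were unsorted or sorted negative. They also do not give the dose, the time at which doxycycline was added, or whether the replicates were grown separately. The p-values therefore reflect the scatter between these libraries alone, which may be technical.

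OCT4, the POU-domain protein made from Pou5f1, and SOX2, an HMG-box protein, bind DNA side by side at joined SOX and octamer sites, and together with the homeodomain protein NANOG they hold embryonic stem cells in a self-renewing state and regulate one another's genes. In the mouse embryo the factors do not leave together when cells enter gastrulation. OCT4 is known to last into the epiblast and early mesoderm, SOX2 becomes restricted to the neural side, and NANOG marks the posterior epiblast and the primitive streak.

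The start regions of the 3 genes are shown because the members depend on one another through such sites, and so that a reader can see which of the joined sites are present near each start. Each run is 300 bases long, from 250 bases before the RefSeq transcription start to 50 after it, on the + strand of GRCm38.p6, 5′ to 3′. Capitals mark every match, on either strand, to 1 of 5 motifs that were searched: the octamer core ATGCAAA, the SOX core CATTGT, their joined form of 14 bases (SOX core, any base, octamer core), the ETS core CCGGAA, which is the letter pattern of the family that Etv2 belongs to, and the nuclear receptor half-site AGGTCA.
Pou5f1, chr17:35505782-35506081: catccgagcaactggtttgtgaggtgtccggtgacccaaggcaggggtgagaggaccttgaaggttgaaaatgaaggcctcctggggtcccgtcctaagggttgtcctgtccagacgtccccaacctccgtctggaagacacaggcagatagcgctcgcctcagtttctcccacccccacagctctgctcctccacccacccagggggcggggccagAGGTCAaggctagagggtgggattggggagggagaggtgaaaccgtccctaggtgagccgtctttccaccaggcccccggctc
Sox2, chr3:34649745-34650044: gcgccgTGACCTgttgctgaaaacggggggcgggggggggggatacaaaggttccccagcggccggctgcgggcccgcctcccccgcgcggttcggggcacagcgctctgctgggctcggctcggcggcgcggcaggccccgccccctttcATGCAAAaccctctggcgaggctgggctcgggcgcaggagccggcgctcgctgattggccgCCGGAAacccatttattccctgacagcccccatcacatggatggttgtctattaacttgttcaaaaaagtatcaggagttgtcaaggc
Nanog, chr6:122707239-122707538: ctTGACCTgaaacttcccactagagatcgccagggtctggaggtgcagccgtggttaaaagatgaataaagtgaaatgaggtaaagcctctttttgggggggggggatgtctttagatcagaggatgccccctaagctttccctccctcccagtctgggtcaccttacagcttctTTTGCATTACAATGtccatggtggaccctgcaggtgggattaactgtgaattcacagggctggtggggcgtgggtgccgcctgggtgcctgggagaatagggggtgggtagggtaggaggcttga
The Nanog window held the joined site, on the minus strand, with its first base at -75 from the start. In it the octamer and SOX cores lie side by side, so their separate matches overlap the joined one. The Sox2 window held an octamer core at -99 and an ETS core at -38, and the Pou5f1 window held neither core. Counted from the start, a nuclear receptor half-site began at -33 in the Pou5f1 window, at -244 in that of Sox2 and at -248 in that of Nanog. Among 32851 RefSeq start windows of the same length, the octamer core occurred in 4.63%, the SOX core in 12.6%, the ETS core in 14.9% and the half-site in 16.3%. The joined form occurred in 2 windows, both of them of Nanog, but its spelling was chosen with the Nanog start region in view. A shortened spelling, CATTGTNATGC, occurred in 20 windows of 18 genes. These matches describe letters within the windows and say nothing of binding, and the known distal enhancers of the 3 genes lie outside them. The RefSeq start of Sox2 lies 410 bases before the start of its GENCODE gene model, so the 2 annotations place that promoter differently.

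In GENCODE vM21 on GRCm38, Pou5f1 lies at chr17:35506018-35510772 on the + strand with 2248 bp of exon, of which 317 bp (14.1%) overlap an antisense gene, Gm19553. Sox2 is a single-exon gene of 2057 bp at chr3:34650405-34652461 on the + strand, inside an intron of the long noncoding gene Sox2ot on the same strand. Nanog lies at chr6:122707489-122714633 on the + strand and has 2242 bp of exon. Gm19553 and the pseudogene copies Nanog-ps1 and Nanog-ps2 have no row in the table, and the sources used here do not give the strand setting of the counting or its handling of reads with several matches. Reads from those genes therefore cannot be separated from those of the members. Sox2ot itself had between 0 and 29 counts per library, against at least 133 for Sox2.

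Library totals ran from 18074070 to 36068329 counts, and 3 counts, taken as the limit of detection, came to between 0.0824 and 0.164 CPM (counts per 1000000 of the scaled library size). Etv2 itself, the gene switched on, averaged 16.9 CPM without doxycycline and 455 CPM with it at day 2, and 7.04, 263 and 313 CPM in the untreated, doxycycline and Flk1-positive groups of day 2.5. Kdr averaged 997 CPM in the Flk1-positive group against 419 CPM with doxycycline and 7.23 CPM without it at day 2.5, so both genes followed the labels of these libraries. The 2 doxycycline libraries of day 2 stood further apart than other replicate pairs, with a chi-square of 33.9 per gene against 3.40 to 10.04 in the other groups.

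Pou5f1 was among the most abundant transcripts of every library, at ranks 28 to 122 of the 14548 genes that passed the filter on low counts. It was measured at 1337 and 1478 CPM in the untreated day 2 libraries, 1570 and 1113 with doxycycline at day 2, 1033 and 933 untreated at day 2.5, 736 and 713 with doxycycline at day 2.5, and, for the Flk1-positive libraries, 858 and 796. All 4 day 2 libraries lay above all 6 of day 2.5, and the Flk1-positive pair sat between the doxycycline and the untreated pairs of its day. The group means ran from 1407 ± 100 (SD, n = 2) at day 2 untreated through 1341 ± 323, 983 ± 70.5 and 827 ± 43.2 to 725 ± 16.6 with doxycycline at day 2.5. The doxycycline pair of day 2 enclosed the untreated pair, so these neighbours in the order did not differ beyond their spread.

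Although the doxycycline step of day 2 did not pass its test, Sox2, a gene of moderate level, had a lower mean in each group in turn. It stood at 140 and 142 CPM untreated at day 2, 127 and 115 with doxycycline, 88.8 and 80.6 untreated at day 2.5, 45.2 and 39.8 with doxycycline, and 5.74 and 7.05 in the Flk1-positive libraries. No pair of groups overlapped. In the pairs of groups compared below, this held for 42.9% to 79.2% of all genes tested. The Flk1-positive values rest on 139 and 133 counts, and the rank of Sox2 went from 1791 in the highest untreated day 2 library to 10544 in the lowest Flk1-positive one. Its group means were 141 ± 1.80, 121 ± 9.03, 84.7 ± 5.80, 42.5 ± 3.81 and 6.39 ± 0.923 CPM (SD, n = 2 each).

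Nanog, whose steps between the untreated days and between the doxycycline days did not pass their tests, followed another order. Its mean was highest in the untreated libraries of day 2.5. Those held 262 and 242 CPM, followed by 213 and 220 untreated at day 2, 88.1 and 85.9 with doxycycline at day 2, 73.5 and 73.4 with doxycycline at day 2.5, and, at the end of the order, 1.45 and 2.70 for the Flk1-positive pair. Again no pair of groups overlapped, as was so for 42.9% to 79.2% of all genes tested in the pairs compared below. The Flk1-positive values rest on 35 and 51 counts, above the limit of 3 counts but few, and the 2 differ by more than those of any other pair in proportion to their mean. Its group means in this order were 252 ± 13.9, 216 ± 5.06, 87.0 ± 1.61, 73.4 ± 0.0800 and 2.07 ± 0.889 CPM (SD, n = 2 each).

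**Figure D1:**
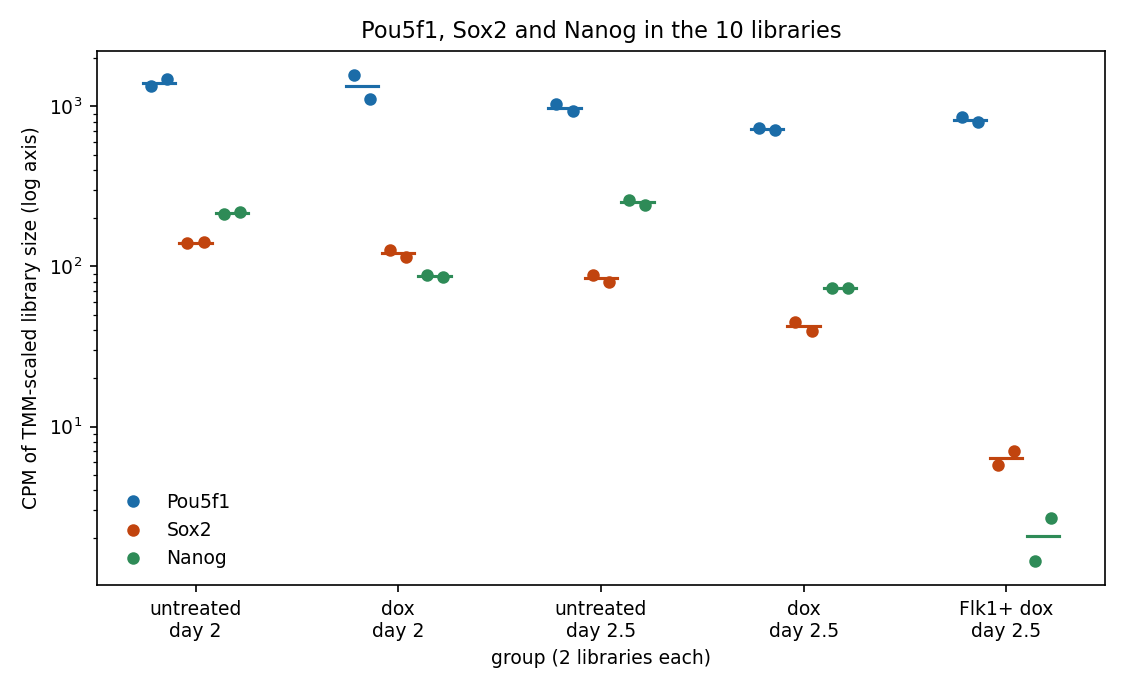
Level of Pou5f1, Sox2 and Nanog in each of the 10 libraries, in CPM on a log axis, with points for libraries and horizontal bars for the means of the 2 libraries of a group. Pou5f1 stays between 713 and 1570 CPM throughout, while Sox2 and Nanog reach 5.74 and 1.45 CPM in the Flk1-positive libraries.

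At day 2, Nanog was the only 1 of the 3 genes called between doxycycline and untreated libraries. Nanog fell from 216 to 87.0 CPM, a log2 fold change of -1.31 ± 0.12 (SE) with an edgeR adjusted p of 3.58e-06, and the 144th largest fall of all genes tested. Sox2 changed by -0.22 ± 0.10 on the log2 scale (adjusted p = 0.31), with 95% limits of -0.44 and 0.00, although its 2 pairs of libraries did not overlap, as was so for 42.9% of all genes tested. Pou5f1 changed by -0.07 ± 0.12 (adjusted p = 0.851). Of all genes tested, 4.67% were called in this comparison, 1.56% being lower with doxycycline and 3.11% higher, so the 1 call among 3 members fell on a comparison with few calls. That background rests on single libraries, with 453 genes higher and 227 lower in all, 1022 and 1275 without doxycycline replicate 2, and 188 and 58 without untreated replicate 1. The Pou5f1 value rests on the doxycycline replicates, which lay far apart. Without replicate 1 of that group it was -0.34 and passed the threshold (adjusted p = 0.00409), and without replicate 2 it was 0.16.

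By day 2.5 all 3 genes were lower with doxycycline than without, to unequal degrees. Nanog fell furthest, by 1.78 ± 0.12 on the log2 scale (SE, edgeR adjusted p = 1.4e-08), to 29.1% of its untreated level. Sox2 fell by 0.995 ± 0.11 (adjusted p = 3.97e-06), to 50.2%, and Pou5f1 by 0.44 ± 0.13 (adjusted p = 0.0147), to 73.7%. In none of the 3 did the doxycycline and untreated libraries overlap, which held for 68.9% of all genes tested. The background was high here, with 29.9% of all genes called and 13.8% lower. Nanog and Sox2 were the 150th and 519th largest falls of the 14548 genes, while Pou5f1 was the 2010th. The Pou5f1 call did not hold without untreated replicate 1 (adjusted p = 0.133) or without doxycycline replicate 2 (adjusted p = 0.108), with the fold change between -0.51 and -0.36 over all single libraries left out. Because these are bulk libraries, fewer cells with a transcript and less transcript per cell cannot be told apart here or in any comparison that follows.

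Between day 2 and day 2.5 without doxycycline, Pou5f1 and Sox2 fell, and Nanog did not pass the test. Sox2 fell by 0.73 ± 0.11 on the log2 scale (SE, edgeR adjusted p = 0.000476) and Pou5f1 by 0.52 ± 0.13 (adjusted p = 0.0105). Nanog had a change of 0.22 ± 0.11 (adjusted p = 0.182), with 95% limits of -0.02 and 0.46, and both of its day 2.5 libraries were above both of day 2, in a comparison in which 65.7% of all genes had groups that did not overlap. In this comparison 19.5% of genes were called, 10.3% being lower and 9.22% higher at day 2.5. The Pou5f1 call did not hold without untreated replicate 2 of day 2 (adjusted p = 0.112) or of day 2.5 (adjusted p = 0.137). The Nanog change passed the threshold without doxycycline replicate 1 or 2 of day 2, at 0.22 in each case. Those libraries lie outside the comparison and enter it through the shared filter, scaling and estimate of the spread.

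With doxycycline over the same interval, Sox2 fell by 1.51 ± 0.11 (SE, edgeR adjusted p = 7.61e-08) and Pou5f1 by 0.89 ± 0.13 (adjusted p = 5.09e-05). Nanog, already low at day 2, changed by -0.24 ± 0.11 (adjusted p = 0.0941). Here 46% of all genes were called, 23.1% lower, so the 2 of 3 members called stand against a high background. None of the 3 had overlapping groups, as for 70.3% of all genes. The Nanog change passed the threshold without doxycycline replicate 2 of day 2 (adjusted p = 0.0252) or without Flk1-positive replicate 1 (adjusted p = 0.0326) or 2 (adjusted p = 0.0328).

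Whether the response to doxycycline itself differed between the days was tested as an interaction. For Sox2 it did: the doxycycline effect was more negative at day 2.5 than at day 2 by 0.78 ± 0.15 on the log2 scale (interaction of -0.78, SE, edgeR adjusted p = 0.00302). The interaction was -0.47 ± 0.16 for Nanog (adjusted p = 0.0722) and -0.37 ± 0.18 for Pou5f1 (adjusted p = 0.195), neither of which passed. Of all genes 12.1% were called in this test, 5.24% with a negative and 6.87% with a positive interaction. A difference in timing between Nanog and Sox2 was not itself tested. The Nanog and Pou5f1 results depended on single libraries. Nanog passed without doxycycline replicate 1 (adjusted p = 0.0113) or 2 (adjusted p = 0.00369) of day 2 or without either Flk1-positive library (adjusted p = 0.0225), and Pou5f1 passed without doxycycline replicate 2 of day 2, at -0.60 (adjusted p = 3.36e-05).

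**Figure D2:**
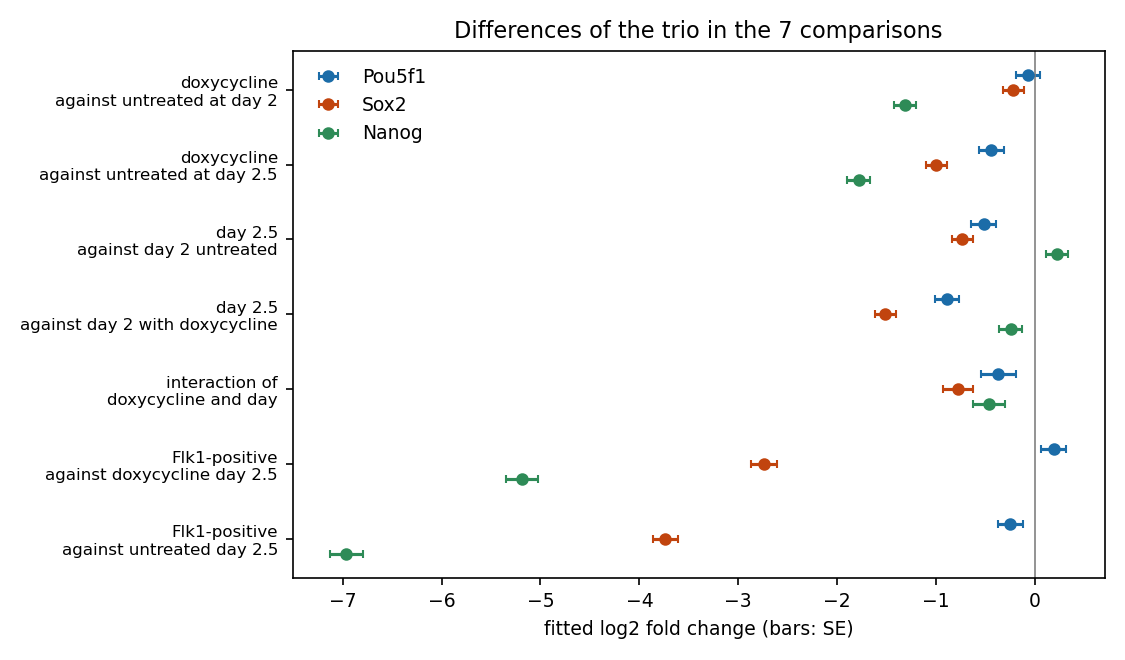
Log2 fold change of each member in the 6 pairwise comparisons and the interaction, with bars for the standard error from edgeR; the members were not tested in the 2 lowest rows, the Flk1-positive comparisons. Pou5f1 lies within 1 log2 unit of 0 in all of them, while Nanog reaches -6.97 and Sox2 -3.74 in Flk1-positive against untreated libraries.

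In the Flk1-positive libraries the 3 genes stood at very different fractions of their levels elsewhere, which is the pattern they were chosen for. Pou5f1 was at 84.1% of its untreated day 2.5 level and at 114% of its level with doxycycline. Sox2 was at 7.55% and 15.1% of the same levels, and Nanog at 0.823% and 2.82%. In folds, Sox2 lay 13.2 times and Nanog 122 times below the untreated group of the same day, against 1.19 times for Pou5f1. The fitted log2 differences from the untreated group were -0.25 ± 0.13, -3.74 ± 0.13 and -6.97 ± 0.17 (SE) for Pou5f1, Sox2 and Nanog, and from the doxycycline group they were 0.19 ± 0.13, -2.74 ± 0.13 and -5.19 ± 0.17. All 3 genes had groups without overlap in both comparisons, as had 79.2% of all genes tested against the untreated group and 75.5% against the doxycycline group. Nanog was the 23rd and 46th largest fall of the 14548 genes, and Sox2 the 193rd and 241st. For the background, 55.3% of genes were called against the untreated group, with 26.6% lower and 28.6% higher, and 41.8% against the doxycycline group, with 21.3% lower and 20.5% higher. The 2 comparisons share the Flk1-positive libraries and are not independent.

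Set per kilobase of exon, so that the genes can be compared with each other, the balance of the trio shifted in each group. For every 100 reads per kilobase of Pou5f1, the untreated day 2 libraries held 11.4 and 10.5 of Sox2 and 15.9 and 14.9 of Nanog. Doxycycline at day 2 left Sox2 at 8.87 and 11.3 and brought Nanog to 5.63 and 7.74. In the untreated libraries of day 2.5 Nanog stood at 25.4 and 26.02, the highest share in the series, with Sox2 at 9.39 and 9.43. With doxycycline at day 2.5 Nanog was at 10.01 and 10.3 and Sox2 at 6.70 and 6.10. In the Flk1-positive libraries both were below 1 per 100 of Pou5f1, with Sox2 at 0.732 and 0.967 and Nanog at 0.169 and 0.340. Nanog exceeded Sox2 per kilobase in the untreated groups and in the doxycycline group of day 2.5, at 1.40 to 2.76 times its level. The order was the other way round with doxycycline at day 2, at 0.635 and 0.687, and in the Flk1-positive libraries, at 0.231 and 0.352. Pou5f1 was the highest of the 3 in all 10 libraries.

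**Figure D3:**
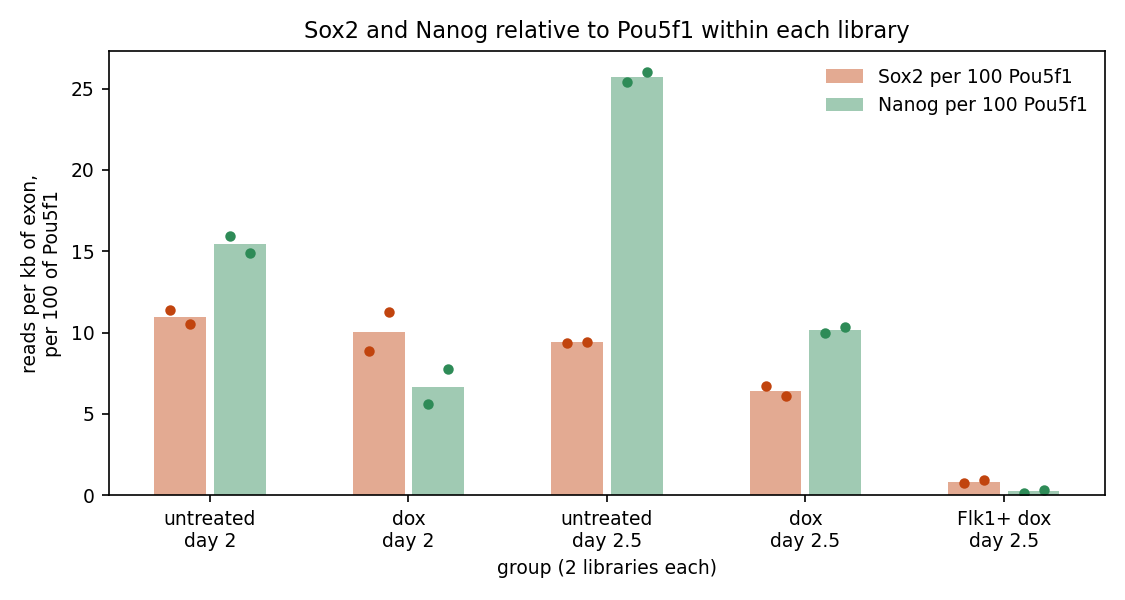
Sox2 and Nanog per 100 of Pou5f1, each in reads per kilobase of exon, with points for the 2 libraries of a group and bars for their mean. Nanog is highest in the untreated day 2.5 libraries at 25.4 and 26.02, and both genes are below 1 in the Flk1-positive libraries.

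Over the 10 libraries, the log-scale levels of Sox2 and Nanog had a Pearson correlation of 0.94, those of Pou5f1 and Sox2 0.68 and those of Pou5f1 and Nanog 0.46. These are descriptions over 5 groups of 2 libraries, and the Flk1-positive pair lies far from the rest for Sox2 and Nanog. The members were chosen on their levels in that pair, so these correlations and the closest genes partly restate the choice. Among 10157 genes with a mean of at least 5 CPM, the 5 closest to Sox2 in pattern included Gbp2, a guanylate-binding protein gene, with r = 0.994, and Trp73, Lypla1 and Pid1. Gbp2 averaged 16.6, 15.6, 10.2, 2.75 and 0.221 CPM over the untreated and doxycycline groups of day 2, the same of day 2.5 and the Flk1-positive group, the same order as Sox2. Those closest to Nanog were Foxi3, a forkhead gene, with r = 0.996, then Mkx, Igfbp3, Gli2 and Cntfr. Foxi3 averaged 20.9, 10.8, 22.9, 10.8 and 1.23 CPM over the same groups, low with doxycycline at both days as Nanog was. Those closest to Pou5f1 were Nup43, a nuclear pore gene, with r = 0.995, then Polr1c, Cyc1, Txnl4a and Rps27l. Nup43 shared with Pou5f1 the wide gap between the doxycycline replicates of day 2, at 85.9 ± 25.6 CPM (SD, n = 2), so this likeness partly follows that gap.

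Genes known as targets of the OCT4 and SOX2 pair were split in the Flk1-positive libraries. Of 6 listed, 4 were lower than in the untreated libraries of day 2.5 and none higher, with a median log2 fold change of -1.35 over the 6 against 0.01 over all genes tested, of which 26.6% were lower and 28.6% higher. The feedback inhibitor of Nodal signalling Lefty1 fell from 25.8 to 0.230 CPM, a log2 change of -6.76 ± 0.36 (SE, edgeR adjusted p = 4.84e-10). Its Flk1-positive level rests on 10 counts over the pair. The secreted phosphoprotein gene Spp1 changed by -3.54 ± 0.40 (adjusted p = 3.05e-06) and the F-box gene Fbxo15 by -2.34 ± 0.33 (adjusted p = 2.24e-05), from 8.45 to 0.739 CPM and from 3.40 to 0.651 CPM. The zinc finger gene Zscan10 kept most of its level, at 245 and 191 CPM, with a change of -0.36 ± 0.08 (adjusted p = 0.00227). Utf1, a chromatin factor of stem cells, stood at 133 CPM untreated and 131 CPM in Flk1-positive libraries, a change of -0.02 ± 0.12 (adjusted p = 0.885). Fgf4, a growth factor gene, had 9.65 and 12.9 CPM, a change of 0.41 ± 0.17 (edgeR adjusted p = 0.0553), which passed with plain library totals (0.51, adjusted p = 0.0247). The change was 0.41 without doxycycline replicate 1 or 2 of day 2, and 0.58 without untreated replicate 2 of day 2.5.

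Against the doxycycline libraries of the same day, Fgf4 was higher in the Flk1-positive ones, by 0.73 ± 0.17 on the log2 scale (SE, edgeR adjusted p = 0.00326), where Sox2 lay at 15.1% of its level. Utf1 was lower there by a log2 change of -0.84 ± 0.12 (adjusted p = 4.39e-05), after rising with doxycycline from 133 to 234 CPM (0.82 ± 0.12, adjusted p = 6.61e-05). Lefty1 shared the early doxycycline response of Nanog, with a change of -1.21 ± 0.20 at day 2 (adjusted p = 0.00201), and was the only 1 of the 6 targets called then (1 to 2 lower and 0 to 2 higher over the alternatives). Between the days without doxycycline 4 of the 6 were lower and none higher, the 4 being Fgf4, Utf1, Spp1 and Fbxo15, as Pou5f1 and Sox2 were. The list's median there was -1.13, and 10.3% of all genes were lower and 9.22% higher. With doxycycline at day 2, 1.56% of all genes were lower and 3.11% higher.

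Protein partners of OCT4 and NANOG, mainly chromatin factors, had a median log2 change of -0.25 between Flk1-positive and untreated day 2.5 libraries. Of 14 listed, 6 were lower and none higher (6 to 11 lower over the alternatives), against 26.6% and 28.6% of all genes. Nr0b1 (Dax1), a nuclear receptor that binds OCT4, went from 2.67 to 0.109 CPM (log2 change of -4.47 ± 0.57, edgeR adjusted p = 8.59e-06). Its Flk1-positive level rests on 5 counts over the pair, and the mean lies below the limit of 3 counts in those libraries (0.124 and 0.159 CPM). The size of this fall is therefore uncertain. Sall4, a zinc finger partner of OCT4 and NANOG, went from 445 to 269 CPM (-0.73 ± 0.08, adjusted p = 2.51e-06). Sall4 was also lower with doxycycline at day 2, by a log2 change of -0.68 ± 0.08 (adjusted p = 8.44e-05), the only partner called there, against 4 lower and 1 higher without doxycycline replicate 2. Hdac2, a histone deacetylase of the NuRD complex, changed by -0.64 ± 0.09 (adjusted p = 3.24e-05) in the Flk1-positive against the untreated libraries.

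Of 9 genes known to regulate members of the trio, 8 could be tested, and in the Flk1-positive libraries 4 were lower and 1 higher than in the untreated libraries of day 2.5 (median -0.26), against 26.6% and 28.6% of all genes. Foxd3, a forkhead factor of the epiblast, fell from 21.9 to 2.499 CPM (log2 change of -3.13 ± 0.17, edgeR adjusted p = 5.38e-10), and was lower with doxycycline at day 2.5 (-0.68 ± 0.14, adjusted p = 0.00134) and at day 2 (-0.60 ± 0.13, adjusted p = 0.0171). The day 2 call was lost without untreated replicate 1 or 2 (adjusted p = 0.155 for each). Nr6a1 (GCNF), a nuclear receptor known as a repressor of Pou5f1, went from 314 to 199 CPM (-0.65 ± 0.10, adjusted p = 4.62e-05), and Nr5a2 (LRH-1), an activator of Pou5f1, from 4.35 to 10.8 CPM (1.31 ± 0.21, adjusted p = 0.000105). Cdx2, the trophectoderm factor that antagonises Pou5f1, went from 10.2 to 1.26 CPM (-2.99 ± 0.29, adjusted p = 3.92e-07). Tcf7l1, a repressor of Nanog, was lower by a log2 change of -0.28 ± 0.09 (adjusted p = 0.0189), a call lost without untreated replicate 2 (adjusted p = 0.117), without Flk1-positive replicate 2 (adjusted p = 0.0944) and with plain library totals (adjusted p = 0.0861). It had been higher with doxycycline at day 2.5, by 0.63 ± 0.09 (adjusted p = 0.000119), where Nanog was lower.

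The wider pluripotency program did not move as one with the trio in every comparison. Of all genes tested, 10.3% were lower and 9.22% higher at day 2.5 than at day 2 without doxycycline. With doxycycline at day 2.5, 16.1% were higher and 13.8% lower than untreated. Of 10 factors of the naive state, the ground state of the inner cell mass, 8 were lower at day 2.5 than at day 2 without doxycycline (6 to 9 over the alternatives) and 1 higher, with a median of -1.28, in the comparison where Nanog was not called. With doxycycline at day 2.5, where all 3 members fell, 5 of the 10 were higher (4 to 6) and 1 lower. In the Flk1-positive libraries 3 were higher and 4 lower than in the untreated ones, with a median of -0.07, against 28.6% and 26.6% of all genes. Klf4 went from 1.59 to 8.46 CPM (log2 change of 2.41 ± 0.32, edgeR adjusted p = 1.34e-05) and Tbx3 from 14.9 to 54.1 CPM (1.87 ± 0.15, adjusted p = 4.77e-08), and the third was Nr5a2. Klf2 fell from 13.0 to 0.259 CPM (-5.77 ± 0.36, adjusted p = 3.04e-09) and Zfp42 (Rex1) from 12.5 to 6.08 CPM (-1.04 ± 0.17, adjusted p = 8.02e-05), and Nr0b1 was lower as given above. The Flk1-positive levels of Klf2 and Nr0b1 rest on 10 and 5 counts over the pair. Prdm14 had 23 counts in the untreated pair and 0 in the Flk1-positive pair, at least 7.01-fold lower by the limit of 3 counts over the group. Against the doxycycline libraries of day 2.5, 7 of the 10 were lower in the Flk1-positive ones and 2 higher (median -0.78). Of all genes, 21.3% were lower and 20.5% higher there. Sox2 and Nanog also stood lower in that comparison, and Pou5f1 did not.

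Genes of the formative state, the epiblast stage that follows, were mostly lower with doxycycline at day 2.5. Of all genes, 1.56% were lower and 3.11% higher with doxycycline at day 2, and 13.8% and 16.1% at day 2.5. Then 8 of 10 were lower and 2 higher than untreated (7 to 8 lower over the alternatives, median -0.79), and in the Flk1-positive libraries 9 were lower and 1 higher than untreated (median -1.66), against 26.6% and 28.6% of all genes. At day 2, 2 of the 10 were lower and 1 higher with doxycycline (median -0.13), with 0 to 4 lower and 0 to 2 higher over the alternatives. Etv5, an ETS factor of the FGF pathway, fell from 391 to 106 CPM with doxycycline (log2 change of -1.88 ± 0.08, edgeR adjusted p = 1.65e-10) and stood at 12.3 CPM in the Flk1-positive libraries. Otx2 went from 130 to 54.2 and 26.4 CPM in the same groups, and Fgf5 from 166 to 95.7 and 38.8 CPM. Dnmt3b, a DNA methyltransferase, went from 2106 to 1152 and 837 CPM. A high level was left, but unlike that of Pou5f1 its mean was lower in the Flk1-positive than in the doxycycline group. The single higher gene was the related Dnmt3a, from 312 to 509 and 616 CPM, with a log2 change of 0.98 ± 0.08 (adjusted p = 9.35e-08) between Flk1-positive and untreated libraries.

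Relatives of Pou5f1 and Sox2 were examined for members of the same family at a higher level in the Flk1-positive libraries. Of 14 other POU genes, 11 could be tested, and none was higher in the Flk1-positive than in the untreated libraries of day 2.5 while 6 were lower (median -1.28), where 28.6% of all genes were higher and 26.6% lower. That count was 3 without Flk1-positive replicate 1 and 7 without either doxycycline library of day 2. Pou3f1 (OCT6), a formative-state gene, was at 35.7 and 26.1 CPM (log2 change of -0.45 ± 0.13, edgeR adjusted p = 0.00935), and its call was lost without untreated replicate 1, at an adjusted p of 0.078. Pou2f3 had 123 counts in the untreated and 0 in the Flk1-positive pair, at least 37.5-fold lower by the limit of 3 counts over the group. The summed level of these 14 genes was 115 to 116 CPM in the Flk1-positive libraries, against 796 CPM or more for Pou5f1 alone.

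Other SOX genes were called in both directions, as genes in general were in this comparison. Of 18 other SOX genes, 16 could be tested, with 6 higher and 7 lower in the Flk1-positive than in the untreated day 2.5 libraries (5 to 7 lower over the alternatives, median -0.32), against 28.6% and 26.6% of all genes. The higher ones were led by the endothelial SOXF genes: Sox7 rose from 0.251 to 154 CPM (log2 change of 9.21 ± 0.34, edgeR adjusted p = 2.4e-11), Sox18 from 0.701 to 303 CPM (8.75 ± 0.22, adjusted p = 8.33e-14) and Sox17 from 0.506 to 41.4 CPM (6.33 ± 0.31, adjusted p = 1.75e-10). Their untreated levels rest on 12, 33 and 24 counts over the pair. Sox11, a SOXC gene, stood at 166 and 311 CPM (0.91 ± 0.08, adjusted p = 2.04e-07), and its relative Sox12 at 265 and 126 CPM (-1.07 ± 0.08, adjusted p = 3.46e-08). Sox18 rose with doxycycline as early as day 2, from 1.12 to 22.1 CPM (4.28 ± 0.22, adjusted p = 8.37e-09), the time at which Nanog fell and Sox2 did not pass the test. Sox3, the SOXB1 relative of Sox2, was at 12.9 CPM untreated, 19.4 with doxycycline and 4.85 in the Flk1-positive libraries of day 2.5. It was higher with doxycycline (0.58 ± 0.17, adjusted p = 0.0181), where Sox2 was lower, but that call did not survive the removal of either untreated library (adjusted p = 0.0712 and 0.111) or of either doxycycline library (adjusted p = 0.156 and 0.0532).

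**Figure D4:**
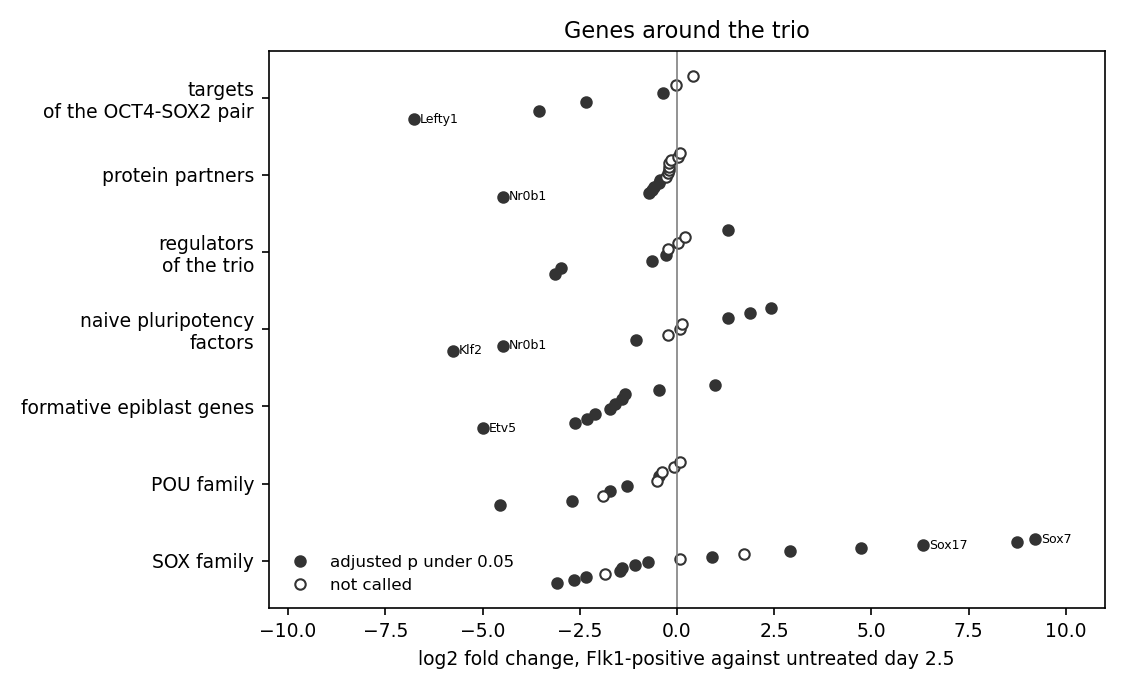
Log2 fold change between Flk1-positive and untreated day 2.5 libraries for every tested gene of 7 lists, 1 point per gene, filled where the edgeR adjusted p was under 0.05; Prdm14 and Pou2f3, with 0 counts in the Flk1-positive libraries, are left out. The protein partners sit close to 0 apart from Nr0b1 at -4.47, which rests on 5 counts over the Flk1-positive pair, and the SOX family spreads from -3.08 to 9.21.

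Marker lists of other cell types changed in some of the same comparisons as the trio. Of all genes tested, 16.1% were higher and 13.8% lower with doxycycline than untreated at day 2.5. In the Flk1-positive libraries 28.6% were higher and 26.6% lower than untreated, and 20.5% and 21.3% than with doxycycline. Summed over 10 blood and endothelial markers, the level was 28.6 to 29.3 CPM in the untreated libraries of day 2.5, 1241 to 1305 with doxycycline and 3160 to 3212 in the Flk1-positive ones, and all 10 were higher with doxycycline at day 2.5. The sum includes Kdr, the gene of Flk1 itself, at 997 CPM in the Flk1-positive group. Against the doxycycline libraries, 7 of the 10 were higher in the Flk1-positive ones and 1 was lower (0 to 1 lower over the alternatives). The lower one was Pecam1, from 8.35 to 5.40 CPM. Summed over 8 primitive streak markers the level was 2766 to 3151 CPM untreated at day 2.5, where the mean of Nanog was highest. The sum was 861 to 898 with doxycycline and 771 to 808 in the Flk1-positive libraries, and all 8 were lower with doxycycline. From the doxycycline to the Flk1-positive libraries the 8 moved apart, with 6 lower and 2 higher (median -1.39). T rose from 362 to 561 CPM and Lhx1 from 7.22 to 31.4 CPM. Among the 6, Eomes fell from 335 to 127 CPM and Mixl1 from 94.5 to 36.3 CPM. The part of these changes in the levels of Nanog and Sox2 was not tested. Markers of germ cells, which also express the trio, summed to 52.0 to 83.8 CPM over all 10 libraries, with 1 of 8 at 0 in the Flk1-positive group. Of these 8, 4 were lower and 1 higher in Flk1-positive than in untreated day 2.5 libraries (3 to 5 lower over the alternatives, median -1.06). Tfap2c, a germ cell transcription factor gene, went from 17.0 to 1.39 CPM (log2 change of -3.62, edgeR adjusted p = 1.06e-09), and Prdm1, which encodes BLIMP1, from 6.78 to 18.3 CPM (1.44, adjusted p = 4.67e-05). Neuroectoderm markers, of interest for Sox2, summed to 232 to 342 CPM over all libraries, most of it from the intermediate filament gene Nes. None of the 3 that could be tested was called between Flk1-positive and untreated libraries, but all 3 were lower in the Flk1-positive than in the doxycycline libraries (median -1.04), against 1 without doxycycline replicate 1 or Flk1-positive replicate 1 and 2 without doxycycline replicate 2. With doxycycline at day 2.5, 2 of the 3 were higher than untreated, against 1 without any single library of those 2 groups. Extraembryonic endoderm markers summed to 57.1 to 60.0 CPM untreated at day 2.5 and to 134 to 144 in the Flk1-positive libraries, with 2 and 1 of 7 at 0. Of the 5 tested, 2 were higher and 1 lower between these groups (median -0.22). The higher ones were the endoderm factor gene Gata6, from 17.96 to 80.5 CPM, and the adaptor gene Dab2, from 28.2 to 48.8 CPM, and the lower one was Amn, from 1.04 to 0.224 CPM, which was not called without untreated replicate 2 or Flk1-positive replicate 2. Fibroblast markers summed to 21.1 to 40.1 CPM, with 4 of 7 at 0 in the Flk1-positive libraries. Actb, a reference gene, averaged 2108 to 2911 CPM over the groups and so varied less than Pou5f1. Of the 5 reference genes listed, 2 were higher and 1 lower in Flk1-positive than in untreated day 2.5 libraries (median 0.01). Between the doxycycline days 1 was higher and 3 lower (median -0.28), against 22.9% and 23.1% of all genes.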

How the data were processed

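The authors deposited raw counts per gene for 10 bulk RNA-seq libraries, with mm10 as the genome build and TopHat, HTSeq and DESeq2 as tools named without version or role, per the submitters' processing notes. The sources used here do not give the gene annotation, the strand setting or the handling of reads with several matches, so counts of overlapping or near-identical genes may be shared or lost. The 92 spike-in entries, all at 0, were set aside. Counts were fitted with edgeR 4.0.16 in R 4.3.3 (TMM scaling, filterByExpr on groups, robust quasi-likelihood test, 5 group means over all 10 libraries so that the 2 libraries per group share 1 estimate of the spread). The filter left 14548 genes, and p-values were adjusted by Benjamini-Hochberg over all of them, with 0.05 as the threshold in two-sided tests. All 3 members passed the filter. CPM are per 1000000 of the TMM-scaled library size, and levels per kilobase use GENCODE vM21 exon lengths. Start windows are RefSeq sequences of GRCm38.p6, matched by symbol for all 3 members. The fit was tested on simulated counts. Members were tested only in comparisons without the Flk1-positive libraries. The members and gene lists were chosen with earlier results of these data known. Genes named with values were, for lists of up to 10 genes, any member, and for longer lists the 3 highest in mean CPM and the 3 largest called changes, and a gene in several lists may be named under each. The 5 genes closest to each member were taken by Pearson correlation of log2 CPM (prior count 2), and 1 of them is not reported here. Replicates with the same number did not deviate together, so they were not treated as pairs. Alternatives were DESeq2 1.42.0, its size factors in edgeR, library totals, no filter, fits of only the groups compared, a replicate term, thinned counts and leaving out each library.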

Additional observations from a re-analysis of the deposited data

Results flagged for a closer look

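The effect of doxycycline on Sox2 differed between the days by the test of that difference, with an interaction of -0.78 ± 0.15 on the log2 scale (SE, edgeR adjusted p = 0.00302). The doxycycline effect was -0.22 at day 2, which was not called (edgeR adjusted p = 0.31), and -0.995 at day 2.5 (adjusted p = 3.97e-06). The groups did not overlap on either day, as was so for 42.9% of all genes at day 2 and 68.9% at day 2.5.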

How the results depend on the processing

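Over 17 alternatives, 337 of 357 values of the 3 members kept their side of the threshold, 335 of them also with the same sign. For the untested Flk1-positive values, this meant the same direction and a shift smaller than the spread of the replicates. Of the rest, 16 gained a call and 4 lost one. The sign changed in 2, both for Pou5f1 with doxycycline at day 2, which was not called: 0.0058 without untreated replicate 2 and 0.16 without doxycycline replicate 2. The Nanog and Sox2 calls at day 2.5, the Nanog call at day 2 and the Sox2 interaction held in all 17. Outside single libraries left out, Nanog gained a call between the untreated days when only the groups compared were fitted (0.24, adjusted p = 0.0105), and its interaction gained one with DESeq2 (-0.48, adjusted p = 0.013), with no filter on low counts (-0.50, adjusted p = 0.0128) and with only the groups compared (-0.46, adjusted p = 0.0293). The Pou5f1 interaction gained one with no filter (-0.40, adjusted p = 0.0226). With each library left out in turn, the Pou5f1 value ranged from -0.34 to 0.16 for doxycycline at day 2, from -0.51 to -0.36 at day 2.5, from -0.59 to -0.44 between untreated days and from -0.60 to -0.10 for the interaction. The Nanog value ranged from 0.16 to 0.28 between untreated days, from -0.26 to -0.23 between doxycycline days and from -0.52 to -0.41 for the interaction. A replicate block changed no member's call (Nanog at day 2.5, -1.78); differences between same-numbered replicates correlated between groups at -0.03 to 0.10. Of other listed genes, Tet1 turned sign without doxycycline replicate 2 of day 2, to -0.51 for doxycycline at day 2 (adjusted p = 0.00107; 0.52 without replicate 1) and 0.46 for the interaction (adjusted p = 0.0111; -0.57 without replicate 1). Pou2f1 did so without replicate 2 between doxycycline days (0.56, adjusted p = 6.55e-06; -0.42 without replicate 1) and without replicate 1 for the interaction (-0.34, adjusted p = 0.0329; 0.64 without replicate 2). The cause of these changes was not tested. Over all genes, doxycycline at day 2 gave 453 higher and 227 lower; 343 were lower with DESeq2, 437 with no filter, and 117 were higher and 38 lower with only the groups compared. Between the untreated days, 1342 were higher and 1494 lower, against 2299 and 2276 with only the groups compared. Protein partners lower in Flk1-positive than in untreated libraries numbered 6, against 10 with no filter and 10 with only the groups compared. Single libraries left out moved the lower count from 58 to 1275 for doxycycline at day 2, from 1032 to 2945 for doxycycline at day 2.5 (2001 with all), from 322 to 2536 between untreated days and from 278 to 1954 for the interaction (763 with all). With 2 libraries per group and 35 and 51 Nanog counts in the Flk1-positive pair, small differences there were not detectable.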
